A study of Homo sapiens with 4 samples.

Results

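The genes described here are 10 secreted chemokines and inflammatory cytokines, namely the chemokines CXCL1, CXCL2, CXCL8, CXCL12 and CCL2, the interleukins IL6, IL11 and IL1B, the IL-6 family cytokine LIF and the macrophage growth factor CSF1. They were chosen by name, not by their values, as 10 of the 31907 gene names with a count in 4 RNA-seq libraries of HGC-27 cells, a human gastric cancer line. A pair of libraries, PBS replicates 1 and 2, came from cells given phosphate-buffered saline (PBS), and the other pair, rIL-17B replicates 1 and 2, from cells given recombinant interleukin-17B (rIL-17B) at 200 ng/ml. All were collected after 48 h. Nothing in the labels says that the replicates were separate cultures, so p-values here measure only the spread between these libraries, which may be technical.

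Chemokines are small secreted proteins that attract leukocytes by binding receptors of the G protein-coupled class. CXCL1, CXCL2 and CXCL8 attract neutrophils through CXCR2, and CXCL8 also through CXCR1, while CXCL12 acts on CXCR4 and ACKR3 and CCL2 on CCR2. IL6, IL11 and LIF signal through the shared receptor subunit gp130, the product of IL6ST. IL-17 family cytokines are known for inducing such genes in epithelial and stromal cells, through the adaptor ACT1, NF-kB factors, and proteins that stabilise short-lived mRNAs. IL-17B binds the receptor IL-17RB.

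The libraries held between 12888029 and 17555879 counts. rIL-17B replicate 1 stood far apart from the other 3 libraries: the chi-square of its counts against those of rIL-17B replicate 2, divided by the degrees of freedom, was 138, compared with 3.64 within the PBS pair. Fits are therefore given with this library and, for many genes and lists, also without it. Its summed level of mesenchymal markers was also far lower and that of epithelial markers, led by KRT8 and KRT7, higher. Those values stand beside the results below. In all 4 libraries the epithelial markers CDH1 (between 7 and 11 counts) and EPCAM (between 39 and 78 counts) had few counts, while the keratin genes KRT8 (between 7880 and 21295 counts) and KRT7 (between 2542 and 5761 counts) of the same marker list were abundant.

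All 10 genes were detected with PBS and all 10 were lower in rIL-17B replicate 1, by between 2.14-fold and a complete loss of counts, whereas rIL-17B replicate 2 was at most 1.40-fold below the PBS mean. Levels are given as CPM, the count divided by the total of the library and scaled to 1e6. The 10 genes together took 590 and 568 CPM in PBS replicates 1 and 2, 451 CPM in rIL-17B replicate 2 and 23.2 CPM in rIL-17B replicate 1. Fewer producing cells and less RNA per cell cannot be told apart in such bulk libraries.

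CXCL8 (interleukin-8, chr4:73740506-73743716 on GRCh38, plus strand) attracts and activates neutrophils. It had 2792 counts in PBS replicate 1, 2128 in PBS replicate 2, and 1 and 2205 in rIL-17B replicates 1 and 2. These counts are 176, 165, 0.0684 and 126 CPM, so that both rIL-17B libraries lay below both PBS libraries. rIL-17B replicate 1 was 2489-fold below the PBS mean of 170 ± 7.38 CPM (SD, n = 2), with a 95% counting interval of 448-fold to 98663-fold. rIL-17B replicate 2 was 1.36-fold lower (interval 1.29 to 1.43). These intervals cover counting error only, since PCR copies of a molecule were counted separately.

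CXCL1 (GRO-alpha, chr4:73869393-73871242, plus strand), a neutrophil attractant found in melanoma cells and in many inflamed epithelia, had 1193 and 914 counts with PBS, and 0 and 995 in rIL-17B replicates 1 and 2. At the level of 3 counts, rIL-17B replicate 1 was at least 355-fold lower than the PBS mean of 73.0 ± 2.89 CPM (SD, n = 2), with a lower limit of 290-fold by the counting interval, and rIL-17B replicate 2, at 56.7 CPM, was 1.29-fold lower (interval 1.20 to 1.39). Its close relative CXCL2 (GRO-beta, chr4:74097035-74099293, minus strand) had 176 and 132 counts with PBS, and 12 and 147 in rIL-17B replicates 1 and 2. CXCL2 was thus kept in part where CXCL1 was not seen. rIL-17B replicate 1 was at 7.71% of the PBS mean, or 7.35-fold to 25.5-fold below it by the counting interval. The ratio of CXCL1 to CXCL2 counts was 6.78, 6.92 and 6.77 in the other 3 libraries. Of the 50-base windows in the longest transcript, 9.24% for CXCL2 and 5.73% for CXCL1 also occur in another gene, chiefly each other and CXCL3, so a small share of their reads could have been assigned to either gene.

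CXCL1, CXCL2, CXCL8 and IL6 share a motif in front of their transcription start that the choice of genes did not use. RefSeq promoters (GRCh38.p14, 250 bases before to 50 after the start) were at hand for 7 of the 10 genes, all but CCL2, LIF and CSF1. The 150 bases before the start are given for those holding the NF-kB-type motif GGNNTTTCC, searched on both strands, with the matches in capitals. In order, they lie at chr4:73869243-73869392 (plus strand), chr4:74099196-74099345 (minus), chr4:73740419-73740568 (plus) and chr7:22727050-22727199 (plus). The RefSeq starts of CXCL2, CXCL8 and IL6 lie inside the longer gene of GENCODE 29.
CXCL1: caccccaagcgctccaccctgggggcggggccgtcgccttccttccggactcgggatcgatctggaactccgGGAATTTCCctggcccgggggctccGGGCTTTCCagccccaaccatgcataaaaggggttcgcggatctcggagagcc
CXCL2: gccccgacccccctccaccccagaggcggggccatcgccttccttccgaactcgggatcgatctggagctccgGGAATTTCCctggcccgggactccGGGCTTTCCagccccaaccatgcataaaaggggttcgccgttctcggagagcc
CXCL8: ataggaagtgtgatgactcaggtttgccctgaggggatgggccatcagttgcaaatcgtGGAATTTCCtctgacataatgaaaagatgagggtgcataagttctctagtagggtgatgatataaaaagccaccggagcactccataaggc
IL6: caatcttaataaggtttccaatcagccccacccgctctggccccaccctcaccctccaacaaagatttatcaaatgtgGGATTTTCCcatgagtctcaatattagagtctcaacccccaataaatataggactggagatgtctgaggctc
CXCL1 and CXCL2 have 2 matches each, 1 of them with the same letters as the match of CXCL8, and the 300-base promoters of CXCL1 and CXCL2 were identical at 72.1% of aligned positions, against at most 50.9% for any other pair of the 7. The motif was in 4 of the 7 promoters and in 6.26% of all 35116 promoters of this length. An AP-1-type motif, TGANTCA, was in the promoters of CXCL8 and IL11 and in 7.71% of all promoters. A C/EBP-type motif (TTNCNNAA), TATAAA and the GC box GGGCGG were in 3, 1 and 3 of the 7, and in 36.8%, 11.5% and 45.0% of all promoters. None of the NF-kB-type matches overlaps a match to another of these motifs. Such matches describe the letters only and are no evidence of binding in HGC-27 cells.

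CXCL12 (SDF-1, chr10:44370165-44386493, minus strand), a chemokine that stromal cells make constitutively, had 2197 and 1625 counts with PBS, and 0 and 1756 in rIL-17B replicates 1 and 2. In CPM both rIL-17B libraries lay below both PBS libraries, which were at 138 and 126. At 3 counts the level in rIL-17B replicate 1 was at least 644-fold lower, with a lower limit of 526-fold by the counting interval, and rIL-17B replicate 2 was 1.32-fold below the PBS mean (interval 1.25 to 1.41). None of the motifs above but the GC box was found in its promoter.

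CCL2 (MCP-1, chr17:34255218-34257203, plus strand) attracts monocytes and, of the chemokines among the 10 genes, was the best kept in rIL-17B replicate 1. It had 656 and 523 counts with PBS, and 127 and 614 in rIL-17B replicates 1 and 2. Relative to the PBS mean of 40.9 ± 0.471 CPM (SD, n = 2), rIL-17B replicate 1 was 4.71-fold lower (interval 3.92 to 5.70) and rIL-17B replicate 2 was 1.17-fold lower (interval 1.06 to 1.29). CSF1 (M-CSF, chr1:109910242-109930992, plus strand), which drives the growth and survival of macrophages, had 1723 and 1452 counts with PBS, and 65 and 1565 in rIL-17B replicates 1 and 2. It was 24.8-fold lower in rIL-17B replicate 1 (interval 19.4 to 32.2) and 1.24-fold lower in rIL-17B replicate 2 (interval 1.16 to 1.31). For both genes the rIL-17B libraries lay below the PBS libraries.

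The 3 cytokines that signal through gp130 did not share a size of difference. IL6 (chr7:22725884-22732002, plus strand), the acute-phase cytokine, had 254 and 216 counts with PBS, and 15 and 205 in rIL-17B replicates 1 and 2. It was 15.9-fold lower in rIL-17B replicate 1 (interval 9.54 to 28.6) and 1.40-fold lower in rIL-17B replicate 2 (interval 1.18 to 1.66), the largest ratio of the 10 genes in that library. LIF (chr22:30240447-30246851, minus strand), which keeps mouse embryonic stem cells undifferentiated in culture, had 256 and 237 counts with PBS, and 92 and 293 in rIL-17B replicates 1 and 2. The first rIL-17B library was 2.74-fold lower (interval 2.17 to 3.44), while the other, at 16.7 CPM, lay between the PBS libraries at 16.1 and 18.4 CPM. IL11 (chr19:55364389-55370463, minus strand), known from bone marrow stroma and fibrosis, had 47 and 45 counts with PBS, and 22 and 50 in rIL-17B replicates 1 and 2. It was 2.14-fold lower in rIL-17B replicate 1 (interval 1.32 to 3.55), the smallest such ratio of the 10 genes, and its counting interval in rIL-17B replicate 2 included no difference. IL6 and LIF overlap other counted genes on the opposite strand (AC073072.1 and STEAP1B for IL6, AC004264.1 for LIF), and whether counting used strand is not given in the sources used here, so their counts could include reads of those genes.

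IL1B (interleukin-1 beta, chr2:112829751-112836903, minus strand), the pro-inflammatory cytokine made as a precursor and cut by caspase-1, had 95 and 51 counts with PBS, and 5 and 81 in rIL-17B replicates 1 and 2. Its PBS libraries were the least alike of the 10 genes, at 5.97 and 3.96 CPM, and rIL-17B replicate 2, at 4.61 CPM, lay between them. rIL-17B replicate 1 was 14.5-fold below the PBS mean (interval 6.21 to 46.3).

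**Figure D1:**
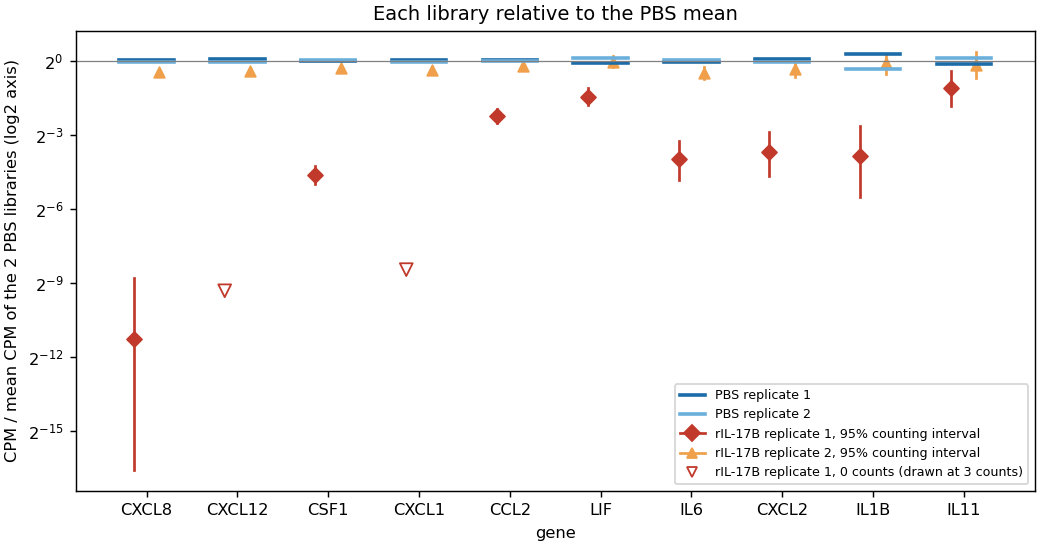
CPM of each library divided by the mean of the PBS libraries (log2 axis) for the 10 genes. Blue bars are PBS replicates 1 and 2, red diamonds rIL-17B replicate 1 and orange triangles rIL-17B replicate 2, with vertical lines for 95% counting intervals, and the open triangles are 0 counts drawn at 3 counts. The ratios of rIL-17B replicate 2 span 71.4% to 96.8% of the PBS mean, and those of rIL-17B replicate 1 reach at most 46.7%.

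Between genes, levels were compared per length as TPM, counts per base of merged exons scaled to a common total, with exons of GENCODE 29. With PBS, CXCL8 was highest at 266 ± 9.72 TPM and CXCL1 next at 200 ± 6.57 TPM (SD, n = 2), followed by CXCL12, CCL2, CSF1, IL6, CXCL2, LIF, IL1B and IL11. The last of these was at 4.29 ± 0.533 TPM. The PBS libraries of CCL2 (73.2 ± 0.346 TPM) and CSF1 (72.4 ± 2.50 TPM) overlapped, as did those of IL1B and IL11, while the other neighbours in this order were separate. CXCL12 and CSF1, not neighbours here, also overlapped, at 74.05 and 74.21 TPM in PBS replicate 2. Per length of the longest transcript instead, CCL2 (114 and 113 TPM in PBS replicates 1 and 2) stood above CXCL12 (107 and 99.0 TPM). In rIL-17B replicate 1 the order was another: CCL2 was highest at 15.3 TPM, LIF next at 5.55 TPM, then CSF1 at 2.87 TPM. IL11, CXCL2 and IL6 followed at 1.97, 1.92 and 1.74 TPM on 22, 12 and 15 counts, and IL11 came after the other two per length of the longest transcript. The 4 CXC genes made 67.7%, 65.5% and 64.5% of the summed counts of the 10 genes in PBS replicates 1 and 2 and rIL-17B replicate 2, but their share was 3.83% in rIL-17B replicate 1.

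The 10 mRNAs were also searched in their 3′ UTRs, the stretch after the stop codon where AU-rich elements mark short-lived mRNAs. The AU-rich pentamer ATTTA was in all 10 of the GENCODE 29 3′ UTRs, with a median of 6 per gene, against 64.4% of 18928 protein-coding genes with a median of 1. The longer nonamer TTATTTATT, which contains the pentamer, was in 6 of the 10 and in 7.51% of those genes. It was also in 6.98% of the 11058 genes whose 3′ UTRs fall in the length range of the 10 genes, 376 to 3204 bases. In that set of like length, 75.6% held the pentamer, with a median of 2 per gene. Both motifs were searched on the transcript strand only. For the 6 genes a stretch of 30 bases that ends in a nonamer (GRCh38) is given with the nonamers in capitals, since they overlap in runs of differing length. In order, they lie at chr4:73870667-73870696 (plus strand), chr4:74097588-74097617 (minus), chr4:73742653-73742682 (plus), chr19:55365949-55365978 (minus), chr2:112830001-112830030 (minus) and chr22:30240968-30240997 (minus).
CXCL1: taggagaagtcttctatTTATTTATTTATT
CXCL2: gtcttctatTTATTTATTTATTTATTTATT
CXCL8: aacatacttatatgtaaagtaTTATTTATT
IL11: ccaaagccagatcTTATTTATTTATTTATT
IL1B: agcaaccgcttccctatTTATTTATTTATT
LIF: aagagagatgtctccgggcccTTATTTATT
CXCL12, CCL2, IL6 and CSF1 hold no nonamer in the 1 transcript searched per gene. The 3′ ends of other transcripts were not searched. The 2 genes best kept in rIL-17B replicate 1, IL11 with 6 nonamers and LIF with 2, hold it, and so do CXCL1 with 3 and CXCL8 with 1, which were at 0 and 1 count there.

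The question of the comparison was whether rIL-17B changes these genes in HGC-27 cells. By edgeR's quasi-likelihood test over 16361 genes with all 4 libraries, none of the 10 genes passed an adjusted p of 0.05, and neither did any other gene (0%). Without adjustment, 226 genes (1.38%) and again 0 of the 10 had a p under 0.05, and DESeq2 also called 0 genes at an adjusted p of 0.05, with 457 at an unadjusted p under 0.05. All 10 fitted log2 fold changes were negative, with a median of -1.24 against -0.03 over all genes tested. CXCL8 had a log2 fold change of -1.44 ± 2.33 (SE, adjusted p = 0.759), CXCL1 of -1.37 ± 2.22 (adjusted p = 0.759) and CXCL12 of -1.41 ± 2.35 (adjusted p = 0.764). The errors of these 3 genes exceed the differences, and rIL-17B replicates 1 and 2 lay far apart for each of them. IL11 had the smallest adjusted p of the 10, 0.661, at a log2 fold change of -0.61 ± 0.48. With 2 libraries per group the smallest two-sided p of an exact permutation test is 0.333, so none is given.

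Both rIL-17B libraries lay below both PBS libraries in CPM for 8 of the 10 genes, all but IL1B and LIF, against 27.5% of all genes tested. The 2 rIL-17B libraries differed in how far below PBS they lay, and a different measure is given for each. rIL-17B replicate 1 was at least 2-fold below the PBS mean for 10 of the 10 genes, against 20.7% of all genes. rIL-17B replicate 2 was below both PBS libraries for 8 of the 10, against 36.1% of all genes. These are the same 8 genes as above, because rIL-17B replicate 1 was below both PBS libraries for all 10. The 8 include IL11, at 2.85 CPM in rIL-17B replicate 2 against 2.96 and 3.49 CPM with PBS, where its counting interval included no difference. Of the 10664 genes with at least 100 counts in each of the other 3 libraries, 342 (3.21%) had at most 3 counts in rIL-17B replicate 1, and these included CXCL1, CXCL8 and CXCL12, 3 of the 8 genes described here that reached that depth.

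Without rIL-17B replicate 1, 504 of 17103 genes (2.95%) passed an adjusted p of 0.05 in edgeR, and 4 of the 10 did, all lower with rIL-17B. CXCL8 fell by 0.44 ± 0.0896 on the log2 scale (SE, adjusted p = 0.000124). CXCL12 fell by 0.41 ± 0.0910 (adjusted p = 0.000978), CXCL1 fell by 0.37 ± 0.103 (adjusted p = 0.0174) and CSF1 fell by 0.31 ± 0.0933 (adjusted p = 0.0325). IL6 had the lowest fold change but fewer counts, -0.49 ± 0.173, and missed the threshold (adjusted p = 0.103). CCL2 and CXCL2 were at -0.23 and -0.35 (adjusted p = 0.362 and 0.443), and IL11, IL1B and LIF at -0.18, -0.13 and -0.05 (adjusted p = 0.897, 0.906 and 0.95). At an unadjusted p under 0.05, 6 of the 10 were lower, against 8.13% of all genes. In this fit the lone rIL-17B library was assumed to vary like the PBS libraries. Without rIL-17B replicate 2 instead, all 10 genes had negative log2 fold changes, with a median of -4.05 against -0.06 over all genes tested.

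**Figure D2:**
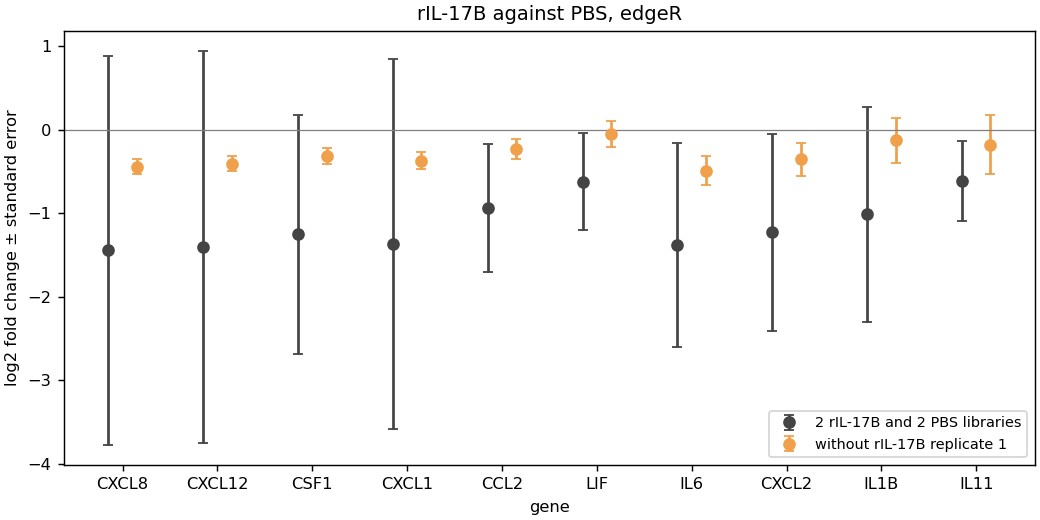
Log2 fold change of rIL-17B against PBS (vertical axis) for the 10 genes by edgeR, with bars for the standard error, over all 4 libraries in black and without rIL-17B replicate 1 in orange. All 20 points lie below 0, with medians of -1.24 in black and -0.33 in orange. The bars are wide in black, where the rIL-17B libraries differ, and short in orange.

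The lower level of CXCL1, CXCL8 and CXCL12 in rIL-17B replicate 2 went together with that of other genes missing from rIL-17B replicate 1. Over the other 339 genes with at most 3 counts in rIL-17B replicate 1, the ratio of rIL-17B replicate 2 to the PBS mean had a median of 0.796 (quartiles 0.688 and 0.874), and 297 of the 339 lay below both PBS libraries. CXCL1, CXCL8 and CXCL12 had ratios of 0.777, 0.737 and 0.757. Over all 10664 genes of that depth the median was 1.01 (quartiles 0.931 and 1.09). What part this has in the calls made without rIL-17B replicate 1 was not tested.

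CXCL1, CXCL2 and CXCL8 belong to the CXC chemokine cluster of chromosome 4, whose other genes can be read beside them. From CXCL8 to CXCL2, whose lower coordinates lie 357 kb apart, 9 chemokine genes were counted. Distances here run between lower coordinates, which are the 3′ ends of minus-strand genes such as CXCL2 and CXCL5. The platelet chemokine genes PPBP and PF4 were the most abundant of the cluster's other genes. PPBP had 3850 and 2590 counts with PBS, and 1 and 3716 in rIL-17B replicates 1 and 2, and PF4 had 2872, 2366, 0 and 2854 in the same order. CXCL6, 96.0 kb from CXCL8, had 1047, 930, 0 and 904 counts, and CXCL5, 255 kb away, had 731, 656, 0 and 651. At the far end CXCL3 had 195, 156, 7 and 187 counts, so the counts left in rIL-17B replicate 1 were in the last 2 genes, CXCL3 and CXCL2, apart from single counts of CXCL8, PF4V1 and PPBP. The next gene, MTHFD2L, an enzyme of mitochondrial folate metabolism whose start is 374 kb from that of CXCL8, had 179, 133, 129 and 151 counts, and the growth factor gene EPGN had 77, 55, 84 and 80. In these genes the counts of rIL-17B replicate 1 were like those of the other libraries. Without rIL-17B replicate 1, CXCL6 fell by 0.42 ± 0.105 on the log2 scale (SE, edgeR adjusted p = 0.00436) and CXCL5 fell by 0.39 ± 0.114 (adjusted p = 0.0296), while PPBP was at -0.07 ± 0.0863 (adjusted p = 0.801) and PF4 at -0.17 ± 0.0878 (adjusted p = 0.386). CXCL5, PF4V1, MTHFD2L and EPGN were named after their values were seen. Of the 8 cluster chemokines with a promoter at hand, 6 held the NF-kB-type motif, the 3 others being CXCL3, CXCL5 and CXCL6.

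Other chemokines were few. Of 13 further CXC chemokines 8 were tested and 0 called with all 4 libraries, all 8 at negative fold changes with a median of -1.12 (-0.18 without rIL-17B replicate 1). CXCL16, a membrane-bound chemokine, differed from the cluster genes in that it was kept in rIL-17B replicate 1, with 136 and 119 counts with PBS, and 79 and 105 in rIL-17B replicates 1 and 2, at -0.71 ± 0.24 on the log2 scale (edgeR adjusted p = 0.661), and at -0.57 ± 0.225 without rIL-17B replicate 1 (adjusted p = 0.17). Of 26 CC, CX3C and XC chemokines 9 had no count in any library. With all 4 libraries 5 were tested and 0 called, with a median of -1.19. With rIL-17B replicate 1 left out, 6 were tested, with a median of -0.31. Counts of calls in that fit are not given for either chemokine list. CCL5 (RANTES), a T-cell attractant, had 1518 and 1184 counts with PBS, and 0 and 1306 in rIL-17B replicates 1 and 2. Without rIL-17B replicate 1 it fell by 0.34 ± 0.0968 on the log2 scale. The epithelial chemokine CCL28 had 106, 82, 45 and 94 counts in the order PBS replicates 1 and 2 and rIL-17B replicates 1 and 2, and CX3CL1 (fractalkine) had 27, 49, 0 and 21.

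Among 34 other inflammatory cytokines, 17 were tested, 0 were called and the median log2 fold change was -0.35, with 6 positive and 11 negative. The median turned to 0.05 without rIL-17B replicate 1, with 12 positive and 8 negative of 20 tested. HMGB1, a nuclear protein that acts as a danger signal outside the cell, had 4395, 3540, 4475 and 5053 counts in that order, and TGFB1 had 1860, 1582, 1069 and 2144. IL18, a cytokine of the IL-1 family that is made constitutively by epithelia, had 362, 252, 623 and 428 counts, opposite in direction to IL1B. Its log2 fold change was 0.57 ± 0.29 (edgeR adjusted p = 0.661). IL18 was at 0.20 without rIL-17B replicate 1, and 0 genes of this list were called.

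The receptors of the 10 genes were present only in part. CXCR1 and CXCR2, the receptors of CXCL8, had at most 2 counts in any library, and CCR2, the receptor of CCL2, at most 1, below the 3 counts taken as the smallest level that can be shown. The decoy receptors ACKR1, ACKR2 and IL1R2 had at most 2, 3 and 7 counts. The CXCL12 receptors were detected and were both highest in rIL-17B replicate 1, where CXCL12 had no count. CXCR4 had 496 and 441 counts with PBS, and 948 and 641 in rIL-17B replicates 1 and 2, at 0.54 ± 0.28 on the log2 scale (edgeR adjusted p = 0.661), and at 0.16 ± 0.12 without rIL-17B replicate 1 (adjusted p = 0.625). ACKR3 had 330, 220, 736 and 428 in the same order (0.89 ± 0.37, adjusted p = 0.661), and was at 0.36 ± 0.143 without rIL-17B replicate 1 (adjusted p = 0.185).

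For the gp130 cytokines, the shared subunit IL6ST had 5861, 4537, 2127 and 5720 counts, the LIF receptor LIFR 1369, 1125, 1295 and 1573, IL6R 238, 150, 318 and 277, and IL11RA 114, 62, 29 and 131, in the order PBS replicates 1 and 2 and rIL-17B replicates 1 and 2. Of these LIFR was the most even across the libraries, at a log2 fold change of -0.03 ± 0.10 (edgeR adjusted p = 0.882). IL1R1, the signalling receptor of IL1B, had 1718 and 1255 counts with PBS, and 9 and 1459 in rIL-17B replicates 1 and 2. Its partner IL1RAP had 312, 249, 212 and 340. Without rIL-17B replicate 1, IL1R1 fell by 0.31 ± 0.0947 on the log2 scale. CSF1R, the receptor of CSF1, had 62, 72, 119 and 108 counts. Over the 15 receptor genes, 9 were tested, 4 at positive and 5 at negative fold changes, with 0 called and a median of -0.03 with all 4 libraries. The median was 0.16 without rIL-17B replicate 1, with 6 positive and 3 negative. Counts of calls in that fit are not given for this list.

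Factors that act upstream of such genes were measured as well. Of 23 transcription and feedback factors 22 were tested, 0 were called with all 4 libraries and the median log2 fold change was -0.47, with 18 of them negative. Their median was -0.15 without rIL-17B replicate 1, with 18 again negative. NFKB1, a subunit of NF-kB, had 506 and 433 counts with PBS, and 434 and 508 in rIL-17B replicates 1 and 2, at a log2 fold change of -0.23 ± 0.11 (edgeR adjusted p = 0.661) and, without rIL-17B replicate 1, of -0.18 ± 0.125 (adjusted p = 0.578). TRAF3IP2, which encodes the adaptor ACT1, had 361, 299, 485 and 461 counts at 0.30 ± 0.14 (adjusted p = 0.661), and at 0.19 ± 0.136 without that library (adjusted p = 0.586). HIF1A had 9324, 7349, 4051 and 9228 counts, STAT3 2885, 2341, 2942 and 3391, and the AP-1 subunit FOSL2 2191, 1746, 1566 and 2426. In the fit without rIL-17B replicate 1, 1 of the 22 was called, against 2.95% of all genes. It was JUN, an AP-1 subunit, at -0.50 ± 0.0993 (adjusted p = 9.9e-05), named after its value was seen.

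Of 20 genes that process cytokines or control the decay of AU-rich mRNAs, 19 were tested and 0 called, with a median log2 fold change of -0.30, 7 positive and 12 negative. Their median turned to 0.05 without rIL-17B replicate 1, with 10 positive and 9 negative. The mRNA decay factors KHSRP and HNRNPD had 5120 and 5006 counts in rIL-17B replicate 1, and 4518 and 4578 in rIL-17B replicate 2. With PBS, KHSRP had 3737 and 3325 counts and HNRNPD 3751 and 3040. In CPM both genes lay above both PBS libraries in rIL-17B replicate 1. In rIL-17B replicate 2, KHSRP, at 257.3 CPM, lay between the PBS libraries at 235.0 and 258.0. HNRNPD, at 260.8 CPM there, lay above both PBS libraries at 235.8 and 235.9. ZFP36, a decay factor that binds AU-rich elements and was named after its values were seen, went the other way in rIL-17B replicate 1, with 539 and 460 counts with PBS, and 51 and 563 in rIL-17B replicates 1 and 2. The convertase gene FURIN had 2497, 2166, 3327 and 2951 counts. PYCARD, the inflammasome adaptor needed to activate caspase-1, was low throughout, with 12 and 9 counts with PBS, and 1 and 7 in rIL-17B replicates 1 and 2.

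A list of 29 IL-17 target genes other than the 10 held 19 tested genes, 0 of them called and all 19 at negative fold changes, with a median of -0.99. PTX3, a secreted pattern recognition protein, had 4710 and 3305 counts with PBS, and 1 and 3992 in rIL-17B replicates 1 and 2. ICAM1 had 1190, 1014, 526 and 1203, the feedback inhibitor TNFAIP3 1020, 812, 452 and 973, the transcription factor CEBPB 577, 443, 211 and 510, and the mucin gene MUC5B 42, 38, 11 and 33. Without rIL-17B replicate 1, 21 were tested with a median of -0.22 and 3 were called, against 2.95% of all genes, all lower, namely CXCL5, CXCL6 and PTX3, which fell by 0.29 ± 0.0861 on the log2 scale (edgeR adjusted p = 0.0347). The list shares genes with the lists above, among them CXCL3, CXCL5 and CXCL6 with the chemokines and TNFAIP3 and CEBPB with the transcription and feedback factors, so these are counted in both.

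Markers of cell types moved with the same library. The summed level of 8 mesenchymal markers was 50780 and 50113 CPM with PBS, 949 CPM in rIL-17B replicate 1 and 42467 CPM in rIL-17B replicate 2, led by FN1 (526938, 418314, 2172 and 481910 counts) and COL1A1 (115523, 96804, 2993 and 108710 counts). That of 10 epithelial markers was 1017, 1013, 2255 and 1272 CPM in the same order, led by KRT8 (9566, 7880, 21295 and 13810 counts) and KRT7 (3358, 2542, 5761 and 4186 counts). In both lists the sum of rIL-17B replicate 2 lay on the same side of PBS as that of rIL-17B replicate 1. Not every epithelial marker went with the sum. Of the 8 tested with all 4 libraries, 6 had positive and 2 negative fold changes, while all 8 mesenchymal markers were negative. The glial and neural list summed to 422, 646, 57.5 and 311 CPM, led by NES and SOX2, and the endothelial list to 32.9, 40.8, 1.16 and 27.1 CPM, led by KDR and VWF. The 10 monocyte and macrophage markers summed to at most 6.92 CPM, with PTPRC at 47, 22, 0 and 36 counts and CD14 at 23, 20, 4 and 21, and the 6 lymphocyte markers to at most 1.32 CPM. The part of cell makeup in the difference of the 10 genes was not tested.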

How the data were processed

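The deposited values are raw read counts per gene name, without normalization and with genes at 0 left out. RNA was primed with oligo-dT and amplified by PCR (Smart-seq2), without molecular identifiers. The submitters' processing notes name HISAT2 2.1.0, HTSeq 0.6.0, Bowtie2 2.2.3, TopHat2 and hg38, without their roles. The annotation and strand setting are not given in the sources used here. The library protocol speaks of monocytes, while the labels give HGC-27.

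A name listed again with the same count (83 to 98 per library) was used once. Names turned into dates (20 to 23 per library, between 0.228% and 0.244% of counts) were left out, and a missing gene was set to 0. Totals were then 15904594 and 12888029 (PBS replicates 1 and 2) and 14615341 and 17555879 (rIL-17B replicates 1 and 2), so that 3 counts, taken as the smallest level that can be shown, were 0.171 to 0.233 CPM. Counting intervals are exact at 95%. Of the names, 98.1% were in GENCODE 29, the source of coordinates, exon lengths and 3′ UTRs.

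The edgeR package 4.0.16 (R 4.3.3) was used for tests of rIL-17B against PBS (TMM, filterByExpr, quasi-likelihood F test, Benjamini-Hochberg over all genes tested, two-sided), after tests on simulated counts. A standard error is the log2 fold change divided by the square root of F. Alternatives were DESeq2 1.42.0, other normalizations and filters, a replicate block and leaving out each library. The 10 genes, the gene lists and the tests were chosen with earlier results of these data known. Named from each list were the 3 genes highest in CPM and the 2 with the smallest p, every receptor, and the 2 highest markers of each cell type. A gene that this rule names is not reported here. Tables and plots used Python 3.11.15.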

Additional observations from a re-analysis of the deposited data

How the results depend on the processing

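With no library left out, DESeq2, upper-quartile and RLE normalization, a fit of all 31907 genes without a filter, a stricter minimum of 10 counts per library (13542 genes and 6 of the 10 tested), an adjusted p threshold of 0.1 and the replicate block all gave 0 called genes. All 56 fold changes of the 10 genes were negative under these, with adjusted p between 0.551 and 0.906. At an unadjusted p under 0.05 the number of genes was 190 by upper-quartile, 197 by RLE, 457 by DESeq2, 879 without a filter, 462 with at least 10 counts and 173 with the replicate block, against 226. Deviations of same-numbered libraries correlated at 0.0816 across genes, so the numbers were not taken to pair the libraries. A low correlation does not show that same-numbered libraries share nothing. The replicate block moved the median log2 fold change of the 10 genes from -1.24 to -2.13 and called 0 of them.

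Leaving out 1 library gave between 0 and 9489 called genes and between 0 and 10 of the 10. Both PBS libraries gave 0 when left out, rIL-17B replicate 1 gave 504 and 4, and rIL-17B replicate 2 gave 9489 and 10. The list counts ranged from 0 to 8 (other CXC), 0 to 6 (CC, CX3C and XC), 0 to 12 (other cytokines), 0 to 8 (receptors), 0 to 15 (processing and decay), 0 to 16 (transcription and feedback) and 0 to 21 (IL-17 targets), each highest without rIL-17B replicate 2. Without rIL-17B replicate 2, 17223 genes were tested, and 8, 6, 18, 9, 19, 22 and 21 of the lists in that order. Fold changes in that fit had both signs among other cytokines (5 positive, 13 negative) and receptors (4 and 5). The same held for processing and decay (5 and 14) and transcription and feedback (3 and 19). They were all negative in the remaining lists. The cause of this dependence on the library left out was not tested.

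TMM scaling moved the group means of CPM of the 10 genes by factors of 0.992 to 1.03. The longest transcript moved their group means of TPM by 0.770 to 1.55, which changed the rank of 2 genes, CXCL12 and CCL2. These ranges do not hold for each library. In rIL-17B replicate 1, TMM took the library size from 14615341 to 15651285, and the longest transcript took LIF from 5.55 to 4.23 TPM. IL11, IL1B and PYCARD are limited by few counts.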
